A study of Mus musculus with 12 samples.

Results

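The integrated stress response genes described here are 36 genes under the transcription factor ATF4 or around it: 12 stress factors and regulators, 7 enzymes of amino acid and one-carbon synthesis, 5 amino acid transporters and 12 cytosolic tRNA synthetases. They were chosen by name from the known pathway, with earlier results of these data known. They were looked up among 53715 gene identifiers by their GENCODE M21 symbols. All 36 passed the filter on low counts, which left 14473 genes in the tests. They were read in organoids of mouse pancreatic ductal adenocarcinoma, which are epithelial cultures grown in Matrigel, over 12 RNA libraries. There were 2 lines, mT6 and mT69a, with 3 groups of 2 libraries in each line.

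Every library came from strain C57/Bl6 and carried the genotype KrasLSLG12D/+; Trp53LSLR172H/LOH; Pdx1-Cre, in which Pdx1-Cre switches the tumour alleles on in pancreatic cells. The series' design text gives the Trp53 allele as heterozygous, while the sample labels give loss of the other copy. The control of each line was labelled as a knockout of Rosa26 and carried empty vector. The knockout was labelled KO1, a knockout of Spdef, and carried empty vector. The vector group was KO1 with an SPDEF over-expression vector. Spdef encodes an ETS-family transcription factor of secretory epithelium. Each line had 1 control derivative and 1 knockout derivative, so the loss of Spdef and the derivative cannot be told apart. The sample titles do not say whether a derivative was a single clone. Whether the 2 libraries of a group came from separate cultures is not given in the labels, and the spread behind every p-value may therefore be technical.

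The integrated stress response starts with kinases that phosphorylate the translation factor eIF2, each sensing a different stress: PERK (Eif2ak3) unfolded protein in the endoplasmic reticulum, GCN2 (Eif2ak4) uncharged tRNA, PKR (Eif2ak2) double-stranded RNA. General translation falls, while the Atf4 mRNA is translated more. ATF4 then pairs with C/EBP proteins and switches on genes that make amino acids, import them and load them onto tRNA, together with genes such as Ddit3, Trib3 and Chac1 that are linked to cell death when stress lasts. Much of this control acts on translation, so the level of Atf4 mRNA does not measure the amount of ATF4 protein.

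ATF4 and its C/EBP partners bind a composite site whose core is written TGATGNAA (TTNCATCA on the other strand, where N is any base). RefSeq gene starts on GRCm38.p6 gave 300-base windows, from 250 bases before to 50 after the start, for 29 of the 36 genes. At least 1 match on either strand was present in 11 genes, and in 34.38% of the 32 windows of the 29 genes against 3.969% of all 32851 windows. The genes were chosen by name from the ATF4 pathway, so these shares do not test the motif. The sites below belong to genes whose values the results turn on or that are textbook ATF4 targets. Each is shown with its 30-base surroundings on the strand of the gene, 5′ to 3′, and the capitals mark the match. The match lay 110 bases before the start in Nupr1 (chr7:126625562-126625591, minus strand), 193 before in Chac1 (chr2:119351038-119351067, plus), 14 after in Trib3 (chr2:152344028-152344057, minus) and 23 before in Asns (chr6:7693214-7693243, minus). In Vldlr, which had 2 windows, it lay 200 bases before the start of 1 of them (chr19:27216809-27216838, plus), and the other had no match. It lay 30 bases before the start in Gars (chr6:55037960-55037989, plus) and 66 and 47 before in Slc7a11 (chr3:50443661-50443690 and chr3:50443642-50443671, minus, stretches that overlap).
Nupr1: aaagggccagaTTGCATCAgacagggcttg
Chac1: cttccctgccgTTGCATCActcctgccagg
Trib3: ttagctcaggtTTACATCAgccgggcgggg
Asns: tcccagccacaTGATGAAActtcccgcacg
Vldlr: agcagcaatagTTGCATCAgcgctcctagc
Gars: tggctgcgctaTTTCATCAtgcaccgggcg
Slc7a11, far site: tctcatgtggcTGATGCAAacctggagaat
Slc7a11, near site: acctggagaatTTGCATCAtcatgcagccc

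Slc7a11 carries the motif once in each orientation. Nupr1 is the gene called higher in the knockout of both lines below, and the 250 bases before this start (chr7:126625471-126625720, minus strand) read as follows, with the same match in capitals.
Nupr1 upstream: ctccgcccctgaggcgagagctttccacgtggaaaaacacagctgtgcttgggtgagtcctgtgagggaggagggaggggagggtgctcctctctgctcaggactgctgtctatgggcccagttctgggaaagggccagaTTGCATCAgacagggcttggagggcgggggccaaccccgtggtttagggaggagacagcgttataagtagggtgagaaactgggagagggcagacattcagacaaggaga

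A match describes the sequence only, and binding was not measured. Between the lines' controls, 7 of the 11 genes with a match and 8 of the 18 without were called higher in mT69a. Of all genes tested, 13.4% were called higher. The medians were 0.59 and 0.62 on the log2 scale. Eif4ebp1, Aldh1l2, Slc7a5, Nars, Wars, Cars and Lars had no window and are in neither count. The medians were 0.02 and 0.01 for knockout against control and -0.13 and -0.03 for vector against knockout, both averaged over the lines, and the differences were not tested. The remaining matches were in Yars, Aars, Iars and Tars.

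Libraries held between 9094295 and 28903831 expected counts. Mitochondrially encoded genes took 12.7% to 15.5% of them in the 6 libraries with the replicate number 1, and 18.6% to 27.1% in the 6 with the number 2. Spdef itself had 30 and 29 counts in the mT6 controls and 0 and 2 in the mT6 knockout. It had 2 and 4 in the mT69a controls against 2 and 0 in the mT69a knockout, so in mT69a the count is too low to check the knockout. It had 0 to 2 counts in the vector libraries, and the vector is not checked by this count. Summed epithelial markers ran from 3467 to 5897 CPM, a count divided by its TMM-adjusted library size, fibroblast markers from 0 to 0.587 CPM and endothelial markers from 0 to 0.538 CPM, and Col3a1 and Lum were at 0 in all 12 libraries. Immune markers summed to 2.35 to 12.1 CPM, Cd68 being the only one of 6 to pass the count filter, and Adgre1 and Cd3e were at 0 in all 12. In bulk RNA, fewer cells of a type and less RNA per cell cannot be told apart.

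Levels between genes were compared as TPM, the authors' abundance per transcript length. Nupr1, a small chromatin-associated stress protein first described in injured pancreas of the rat, was the most abundant of the 36 with a median of 292 TPM over the 12 libraries. Psat1 of serine synthesis followed with a median of 126 TPM, and Atf4 itself with 105 TPM. Their ranges overlapped, from 147 to 524 TPM for Nupr1, 70.2 to 229 TPM for Psat1 and 59.3 to 203 TPM for Atf4. Among the transporters Slc3a2, the shared heavy chain of the cystine and large neutral amino acid carriers, was highest with 73.8 to 143 TPM. Among the synthetases Nars ran from 55.1 to 195 TPM and Sars from 59.2 to 106 TPM. The lowest levels were those of the death-linked genes Ddit3 (median 9.73 TPM), Trib3 (5.53 TPM) and Chac1 (4.81 TPM), of the kinase PERK (Eif2ak3, 6.32 TPM) and of the mitochondrial folate enzyme Aldh1l2, with 2.05 to 10.4 TPM. Exons of Cebpb (20.7% of bases), Aldh1l2 (14.1%) and Psph (10.4%) overlap genes on the opposite strand, and their values are uncertain to that extent.

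**Figure D1:**
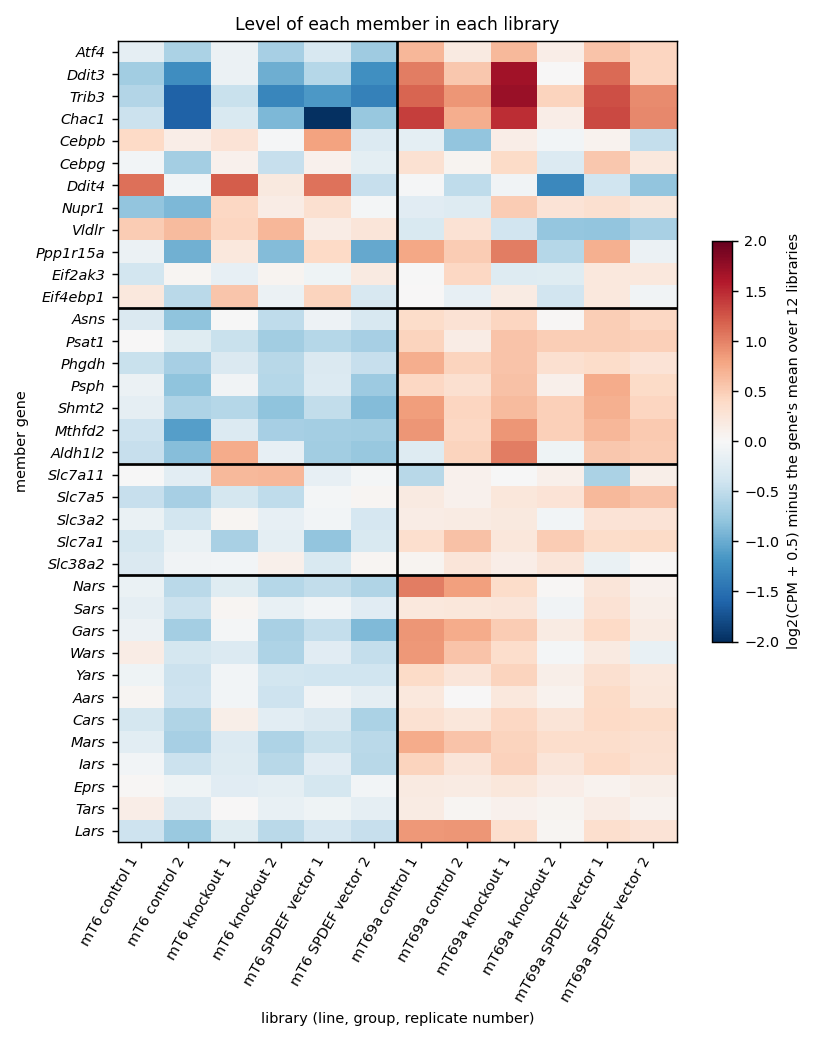
Each row is 1 of the 36 genes and each column 1 of the 12 libraries, with colour giving log2(CPM + 0.5) minus the gene's mean over the libraries. Thick lines separate the lines and the 4 groups of genes. Most rows are blue in the mT6 columns and red in the mT69a columns, with Ddit4 and Vldlr among those running the other way.

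By median fold change, the set differed more between the lines than in the other comparisons below. In the controls, 20 of the 36 genes were higher in mT69a than in mT6 by edgeR's quasi-likelihood test with Benjamini-Hochberg adjustment (threshold 0.05), where 13.4% of all genes tested were called higher and 14.7% lower. The median log2 fold change was 0.70 over the 36 genes and -0.03 over all genes tested. The genes called were 5 of 12 stress factors, 4 of 7 synthesis enzymes, 2 of 5 transporters and 9 of 12 synthetases. The difference spans all 4 roles of the pathway. Of the 36 genes, 20 had all 6 mT69a libraries above all 6 mT6 libraries, against 8.23% of all genes tested. These 20 included Atf4, Ddit3, Trib3 and Chac1, 6 of the 7 synthesis enzymes and 8 of the 12 synthetases. No gene of the set had all mT69a libraries below all mT6 libraries, against 9.04% of all genes.

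Among the stress factors the steepest differences were at the death-linked end. Trib3, a pseudokinase that restrains AKT and ATF4, stood at 6.09 and 2.71 CPM in the mT6 controls and 21.8 and 17.7 CPM in the mT69a controls. In the knockout it was 6.81 and 3.49 CPM in mT6 and 32.3 and 13.0 CPM in mT69a, and with the vector 3.97 and 3.40 against 23.7 and 18.7 CPM. Every mT69a library was above every mT6 library. The log2 fold change between the controls was 2.22 ± 0.50 (SE, edgeR adjusted p = 0.0101), and the lines also differed in the knockout and with the vector (2.19 and 2.52, edgeR adjusted p = 0.0125 and 0.0124). Chac1, which breaks down glutathione, had 5.10 and 1.96 CPM in the mT6 controls and 19.3 and 11.99 CPM in the mT69a controls, a log2 fold change of 2.22 ± 0.61 (edgeR adjusted p = 0.0247). Ddit3, the transcription factor CHOP, had 3.81 and 2.43 CPM against 13.7 and 9.63 CPM (1.94 ± 0.58, edgeR adjusted p = 0.0342). Ddit3 and Mars overlap by 68 bases on opposite strands, and the sources used here do not say whether counting used the strand. Atf4 mRNA differed less, from 137 and 99.8 CPM in the mT6 controls to 247 and 176 CPM in the mT69a controls. Its log2 fold change was 0.84 ± 0.26 (edgeR adjusted p = 0.037), and all 12 libraries separated by line.

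These calls rested on few libraries. Without mT6 control 2 or without mT69a control 1, Trib3 (edgeR adjusted p = 0.0763 and 0.0622), Chac1 (0.148 and 0.139), Ddit3 (0.205 and 0.171), Atf4 (0.207 and 0.261), Nupr1 (0.0895 and 0.079) and Asns (0.109 and 0.0851) passed no longer, and the count of the set fell from 20 to 8 and to 10. On the TPM scale with limma on log2(TPM + 1), 7 of the 20 passed: Trib3, Phgdh, Mthfd2, Slc7a1, Nars, Mars and Lars. The fold changes kept their sign in these alternatives. Ddit3 was also lost without mT6 control 1 (0.0794), mT6 vector 1 (0.0514) or mT69a control 2 (0.0557), and Atf4 without either mT69a vector library (0.0555 and 0.0502). With the replicate number as a block, 28 genes were called higher and 3 lower, the 3 being Cebpb, Ddit4 and Vldlr, where 20.4% and 21.4% of all genes were called under the block.

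The enzymes that make serine and feed one carbon units to mitochondrial folate were also higher in mT69a. Phgdh, the first enzyme of serine synthesis, had 90.4 and 77.9 CPM in the mT6 controls and 204 and 169 CPM in the mT69a controls. Mthfd2, of the mitochondrial folate cycle, had 28.9 and 17.7 CPM against 71.6 and 51.7 CPM. Their log2 fold changes were 1.15 ± 0.16 and 1.41 ± 0.25 (edgeR adjusted p = 0.000571 and 0.0026), and Shmt2, which splits serine in mitochondria, was higher by 1.04 ± 0.21 (edgeR adjusted p = 0.00447). These 3 were called in the controls, in the knockout and with the vector, and without any single library the 3 calls in the controls remained. In the knockout the calls of Phgdh and Shmt2 remained too. That of Mthfd2 was lost without mT69a knockout 1 or mT6 knockout 2. Asns, asparagine synthetase, was higher in the controls (0.86 ± 0.22, edgeR adjusted p = 0.015) with 104 and 71.8 CPM in mT6 against 164 and 155 CPM in mT69a. Psat1 had a log2 fold change of 0.42 between the controls (edgeR adjusted p = 0.0565) and was higher in mT69a by 1.11 in the knockout and 1.11 with the vector (edgeR adjusted p = 0.000615 and 0.000775). Chromosome 19, which holds Psat1, had a median of -0.12 between the controls. Its medians of 0.19 in the knockout and 0.28 with the vector were the highest of 20 chromosomes, and their part was not tested.

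Of the transporters, Slc7a5, the large neutral amino acid carrier LAT1, and Slc7a1, the arginine and lysine carrier CAT1, were higher in the mT69a controls by 0.70 ± 0.12 and 0.70 ± 0.20 on the log2 scale (edgeR adjusted p = 0.00214 and 0.0244). Slc7a1 passed no longer without mT6 control 1 (0.119), mT6 control 2 (0.0512) or mT69a control 2 (0.107). The cystine carrier Slc7a11 had a difference of -0.09 and Slc38a2, a sodium-coupled glutamine and alanine carrier, one of 0.33, and neither was called.

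Of the synthetases, Lars for leucine differed most, with 77.2 and 61.4 CPM in the mT6 controls and 190 and 191 CPM in the mT69a controls. Nars for asparagine had 192 and 144 CPM against 428 and 370 CPM. The log2 fold changes were 1.46 ± 0.16 and 1.25 ± 0.19 (edgeR adjusted p = 0.000121 and 0.000907). Both genes lie on chromosome 18, Lars at 42202298 to 42262194 and Nars at 64499647 to 64516652 (GRCm38). The 341 tested genes of chromosome 18 had the highest median of 20 chromosomes in this comparison, 0.55 on the log2 scale, and 46.6% of them were called higher. On the chromosomes of the other steep genes the medians were 0.15 (chromosome 2, Trib3 and Chac1), 0.21 (chromosome 10, Ddit3, Mars and Shmt2), 0.01 (chromosome 3, Phgdh) and -0.01 (chromosome 6, Mthfd2, Asns and Gars). Gars for glycine was higher by 1.19 and Mars for methionine by 1.09 (edgeR adjusted p = 0.00628 and 0.00111), and Aars, Eprs and Tars were the 3 synthetases not called.

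In the knockout, 13 of the 36 genes were higher in mT69a and Vldlr, the receptor for very low density lipoprotein, was lower, where 12.6% of all genes were called higher and 12.7% lower. With the vector it was 17 higher and again Vldlr lower, where 8.57% and 9.2% of all genes were called. With the replicate number as a block the knockout libraries gave 22 genes higher and 2 lower, where 19.4% and 19.8% of all genes were called. In all 3 conditions 11 of the 36 were called higher, against 3.75% of all genes: Trib3, Phgdh, Shmt2, Mthfd2, Slc7a5, Slc7a1, Nars, Yars, Mars, Iars and Lars. The Yars call in the knockout was lost in 9 of the 12 fits with 1 library left out. The 3 conditions use different libraries of the same lines and derivatives, and the lines were not replicated. Counts fell to 6 without mT6 knockout 2 and 7 without mT69a knockout 1, and with the vector to 2 without mT69a vector 1, 7 without mT69a vector 2 and 8 without mT6 vector 2. Vldlr had 178 and 196 CPM in the mT6 controls and 101 and 153 CPM in the mT69a controls. In the knockout it had 170 and 199 CPM against 96.4 and 73.4 CPM, a log2 fold change of -1.12 ± 0.20 (edgeR adjusted p = 0.0032). Ddit4, an mTORC1 inhibitor, had 20.4 to 49.3 CPM in mT69a and 36.3 to 117 CPM in mT6, with overlapping ranges and no call without the block.

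**Figure D2:**
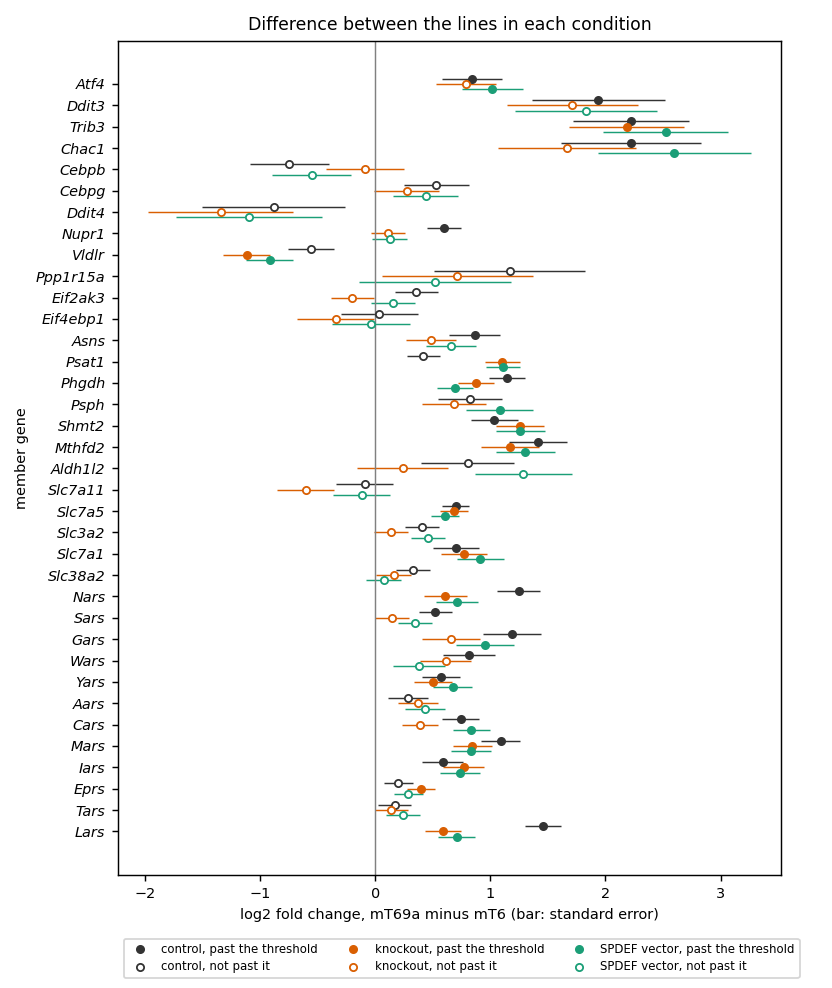
The horizontal axis is the log2 fold change of mT69a against mT6 for each of the 36 genes, with bars for the standard error, and colours separate the control, knockout and vector libraries. Filled points passed the adjusted threshold. Trib3, Chac1 and Ddit3 lie farthest right at 1.67 or more in every condition, and Vldlr and Ddit4 lie left of 0.

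Related genes outside the 36 were read for the same comparison of controls. Of 34 tested genes of other integrated stress response roles, 13 were called higher in mT69a and 5 lower. Atf5, a sister factor of ATF4, had 3.66 and 3.46 CPM in the mT6 controls and 23.0 and 14.9 CPM in the mT69a controls (log2 fold change 2.41 ± 0.27, edgeR adjusted p = 0.000156). The stress cytokine Gdf15 had 0.305 and 0.107 CPM against 3.13 and 3.17 CPM and was called (4.09 ± 1.13, edgeR adjusted p = 0.0251). Cth of cysteine synthesis and the aspartate aminotransferase Got1 were higher by 1.61 and 1.04, and Slc7a3, Jdp2, Eif2ak2, Stc2 and Slc36a4 were lower by edgeR's test. Among 20 genes of endoplasmic reticulum folding, a neighbouring stress pathway, the calls were Xbp1 and Ern1, both lower (-1.55 and -0.76, edgeR adjusted p = 8.2e-05 and 0.0101). The other 8 cytosolic synthetases split, with Hars and Rars higher and Qars and Dars lower, and 5 of 17 mitochondrial synthetases were higher and 2 lower. Immediate early genes, which mark acute handling and growth signals, summed to 183 to 762 CPM in mT6 and 176 to 326 CPM in mT69a, and their part in the line difference was not tested.

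Few of the 36 genes differed between knockout and control. In mT6 Nupr1 was called higher, 1 gene of 36 where 1.28% of all genes were called higher and 1.96% lower. In mT69a Nupr1 was called higher, with Nars and Lars lower, where 4.88% and 3.71% of all genes were called higher and lower. The median log2 fold change was 0.13 over the set and 0.01 over all genes in mT6, and -0.03 and -0.01 in mT69a. Genes whose 2 knockout libraries lay above both controls numbered 6 in mT6 and 4 in mT69a, where 21.3% and 24.1% of all genes did, and those below numbered 2 and 7, where 21.7% and 24.5% did. With the replicate number as a block, 2 genes were higher in the mT6 knockout (Nupr1 and Cars) and 2 lower (Psat1 and Wars), where 5.38% and 7.12% of all genes were called. In the mT69a knockout the block gave 1 higher (Nupr1) and 5 lower (Eif2ak3, Nars, Lars, Gars and Wars), where 8.51% and 7.52% of all genes were called.

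Nupr1 (ENSMUSG00000030717.9, chromosome 7, 126623249 to 126630861 on GRCm38) had 107 and 99.0 CPM in the mT6 controls and 245 and 205 CPM in the mT6 knockout. In mT69a it had 158 and 154 CPM in the controls and 263 and 223 CPM in the knockout. No knockout library of either line overlapped its controls. The log2 fold change was 1.13 ± 0.15 in mT6 and 0.64 ± 0.15 in mT69a (edgeR adjusted p = 0.00354 and 0.025). On the TPM scale with limma on log2(TPM + 1) the differences were 1.13 and 0.74 and were not called (limma adjusted p = 0.184 and 0.35), and neither was any other knockout or vector call on that scale. Within libraries of the same number the differences were 1.19 and 1.05 in mT6 and 0.74 and 0.54 in mT69a, all 4 positive. With the vector Nupr1 stood at 230 and 181 CPM in mT6 and 232 and 216 CPM in mT69a, still above all controls of its line. Against control the vector libraries were higher by 0.76 ± 0.11 averaged over the lines (edgeR adjusted p = 0.00102). The mT69a call was lost without either mT69a control (0.116 and 0.16), mT69a knockout 1 (0.21) or mT69a vector 2 (0.0547), while the mT6 call remained in each left-out fit. The line difference in the response was -0.49, called with the replicate block (edgeR adjusted p = 0.0317) but not without it (0.239).

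Of the other 11 stress factors edgeR called 0 in either line, with 2 at an unadjusted p under 0.05 in mT69a and 0 called by DESeq2. Atf4 had 142 and 97.7 CPM in the mT6 knockout and 243 and 170 CPM in the mT69a knockout, and in both lines these values overlap those of the controls. Its log2 fold changes of 0.02 and -0.03 were not called (SE 0.26 in each line). Ddit3, Trib3 and Chac1 were called in neither line, and knockout libraries numbered 1 were above those numbered 2 for each of them. With the replicate number as a block, Eif2ak3 was lower in the mT69a knockout (-0.45, edgeR adjusted p = 0.0424), and 8.05% of its exonic bases overlap an antisense gene.

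Of the 12 enzymes and transporters edgeR called 0 in either line without the block. In mT6, 2 synthesis enzymes and 1 transporter had an unadjusted p under 0.05, and DESeq2 called the transporter, Slc7a11. Psat1 had 267 and 223 CPM in the mT6 controls and 193 and 163 CPM in the knockout, without overlap, and passed with the block (-0.46, edgeR adjusted p = 0.00898, against 0.132 without). Slc7a11, which imports cystine for glutathione, had 384 and 334 CPM in the mT6 controls, 610 and 612 CPM in the knockout and 345 and 377 CPM with the vector. Both knockout libraries were above the other 4 mT6 libraries. The log2 fold change against control was 0.77 ± 0.25 (adjusted p = 0.137 by edgeR and 0.0469 by DESeq2). In mT69a Slc7a11 had 264 and 410 CPM in the controls and 387 and 417 CPM in the knockout, which overlap. Slc7a11 is also a known target of NRF2. Of 9 other NRF2 targets edgeR called 2 higher in the mT6 knockout, Nqo1 and Srxn1 (1.14 and 1.05, edgeR adjusted p = 0.0375 and 0.0308), against the 1.28% of all genes given above. All 9 log2 fold changes were positive with a median of 0.73, and 5 were called higher with the block and 4 by DESeq2. With the vector the 9 did not return to control as Slc7a11 did. In mT6 they summed to 902 and 653 CPM in the controls, 1250 and 890 CPM in the knockout and 1182 and 915 CPM with the vector. The part of NRF2 in the Slc7a11 values was not tested.

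**Figure D3:**
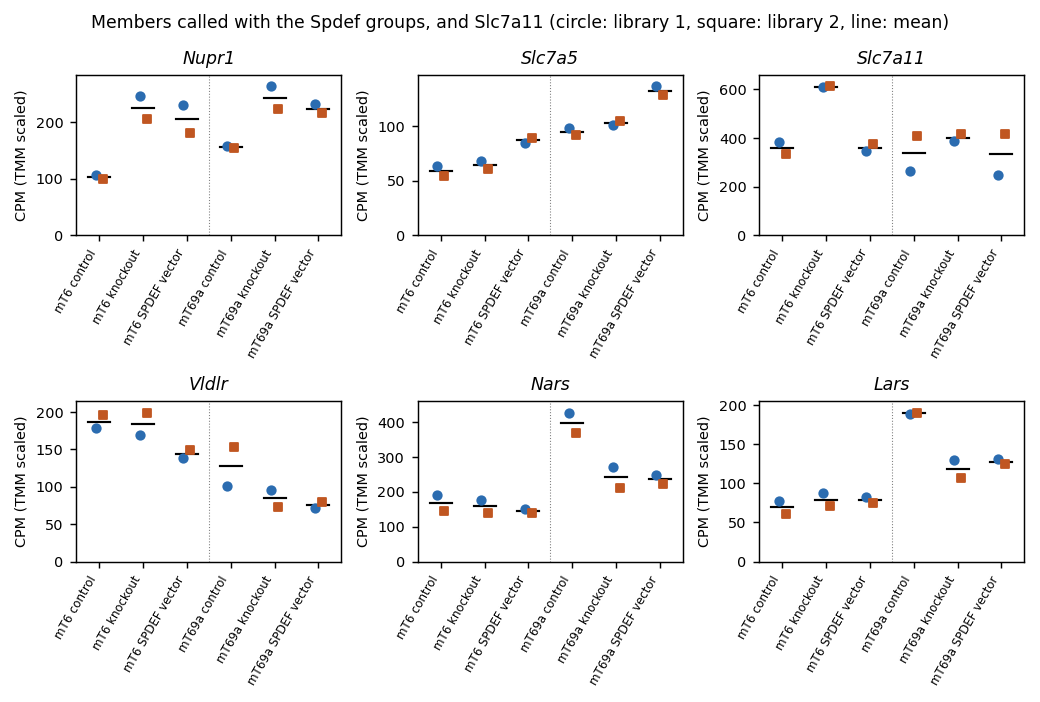
Each panel shows CPM on the vertical axis for 1 gene in the 6 groups, with a circle for library 1, a square for library 2 and a line for the mean. Nupr1 is above control in the knockout and vector groups of both lines, Slc7a11 stands out in the mT6 knockout, and Nars and Lars are highest in the mT69a controls.

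The synthetases called lower in the mT69a knockout without the block, Nars and Lars, lie on chromosome 18. Of the 12 synthetases 5 had both knockout libraries below both controls, where 24.5% of all genes did. With the block Gars and Wars were called lower too, where 7.52% of all genes were called lower. Nars went from 428 and 370 CPM in the controls to 272 and 212 CPM, and Lars from 190 and 191 CPM to 130 and 107 CPM. Neither gene overlapped between the groups, and the vector libraries stayed at the knockout level with 249 and 223 CPM for Nars and 131 and 125 CPM for Lars. The log2 fold changes were -0.72 ± 0.18 and -0.68 ± 0.16 (edgeR adjusted p = 0.0374 and 0.0227). The Nars call was lost without any single mT69a library (0.0609 to 0.278) and the Lars call without either control (0.101 and 0.106) or either knockout library of mT69a (0.0548 and 0.198). In mT6 the same genes had 177 and 141 CPM (Nars) and 87.2 and 71.0 CPM (Lars) in the knockout, close to their controls.

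The 341 tested genes of chromosome 18 had a median log2 fold change of -0.49 in the mT69a knockout, the lowest of 20 chromosomes, and 26.7% of them were called lower and 3.52% higher. In mT6 the median was 0.08. Hars and Hars2, the cytosolic and mitochondrial synthetases for histidine, lie on the same chromosome outside the 36, and both fell in the mT69a knockout, by 0.55 and 0.66 on the log2 scale (edgeR adjusted p = 0.0386 and 0.0281). Chromosome 12, which holds Wars for tryptophan, had the next lowest median at -0.34. Wars had 104 and 83.8 CPM in the mT69a controls and 72.2 and 55.1 CPM in the knockout, and it passed with the block (-0.56, edgeR adjusted p = 0.0011) but not without it (0.184). Gars on chromosome 6, whose median was 0.03, had 289 and 263 CPM against 222 and 175 CPM and also passed with the block alone (-0.49, edgeR adjusted p = 0.0123). In the mT6 knockout the lowest medians were those of chromosomes 17 (-0.44), 14 (-0.37) and 19 (-0.29), and Psat1 lies on chromosome 19. Whether a change of chromosome copy number differs between the derivatives of a line was not tested.

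**Figure D4:**
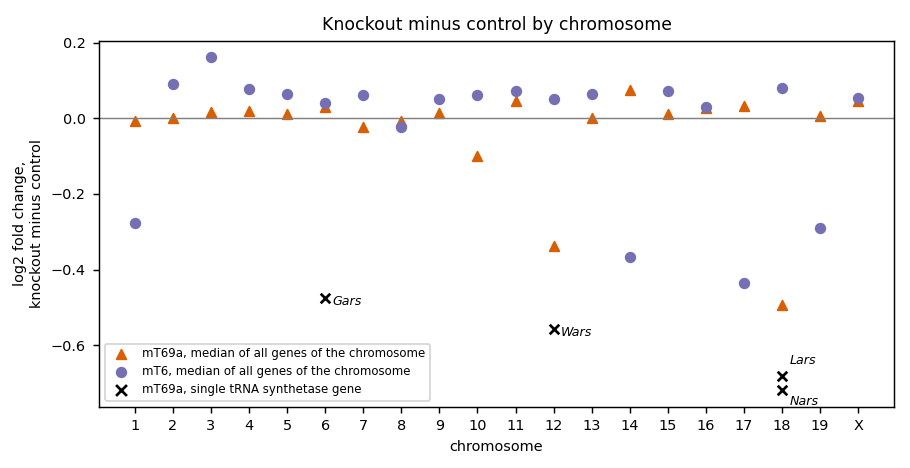
The vertical axis is the log2 fold change of knockout against control and the horizontal axis the chromosome. Triangles (mT69a) and circles (mT6) are medians over all tested genes of a chromosome, and crosses are single synthetase genes in mT69a. Lars and Nars lie at -0.68 and -0.72, below the lowest triangle, that of chromosome 18 at -0.49.

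A test of the difference between the lines' responses called Lars alone of the 36 (-0.87 ± 0.22, edgeR adjusted p = 0.0432), where 2.58% of all genes were called lower in mT69a and 4.04% higher. It was lost without either mT69a control (0.107 and 0.113), any mT69a knockout or vector library (0.0601 to 0.174), mT6 knockout 1 (0.153) or mT6 control 2 (0.137). Chromosome 18 had the lowest median of this difference too, -0.56 over its 341 genes. With the replicate block Lars passed at -0.88 (edgeR adjusted p = 0.00161), with Nars, Gars and Nupr1 lower and Psat1 higher (-0.65, -0.54, -0.49 and 0.69), where 6.79% of all genes were called lower and 8.45% higher.

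Averaged over the lines, Nupr1 was the 1 gene of 36 called in the knockout, where 3.3% of all genes were called higher and 2.3% lower. With the block Cars for cysteine was also higher (0.25, edgeR adjusted p = 0.0416), and Nars, Wars and Lars were lower (-0.40, -0.45 and -0.25). Under the block 7.96% of all genes were called higher and 7.04% lower. Within the same replicate number, Lars differed by 0.18 and 0.21 in mT6 and by -0.54 and -0.83 in mT69a. Nars differed by -0.12 and -0.04 in mT6 and by -0.65 and -0.80 in mT69a. Chromosome 18, which holds both, had the lowest median of 20 chromosomes in this average, -0.21, and its part was not tested. In the same average without the block, the NRF2 target Srxn1, which reduces oxidised peroxiredoxins, rose by 0.71 (edgeR adjusted p = 0.0231). Ern1, the endoplasmic reticulum sensor IRE1, fell by 0.53 (edgeR adjusted p = 0.0371). Ern1 had 26.4 and 36.6 CPM in the mT69a controls and 16.6 and 14.9 CPM in the knockout. In mT6 it had 52.3 and 54.2 CPM in the controls and 45.7 and 56.3 CPM in the knockout, which overlap. Of the 34 other integrated stress response genes, edgeR called 2 higher and 1 lower in the mT69a knockout: the kinase PKR (Eif2ak2, 1.71), Jdp2 (1.74) and Soat2 (-1.77). In the mT6 knockout edgeR called 0 of these 34, 5 had an unadjusted p under 0.05 and DESeq2 called 1.

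The SPDEF vector in KO1 went with few differences among the 36 genes. In mT6 edgeR called 0 of the 36 genes, with 4 at an unadjusted p under 0.05 and 0 called by DESeq2, where 1.55% of all genes were called higher and 1.14% lower. In mT69a edgeR called 0, with 2 at an unadjusted p under 0.05 and 0 by DESeq2, where 2.57% and 1.68% of all genes were called. Averaged over the lines, Slc7a5 was the 1 gene called, where 4.46% of all genes were called higher and 3.32% lower. With the block, Slc7a5 was called in both lines (0.44 and 0.36, edgeR adjusted p = 0.0196 and 0.0364), with Cars lower in mT6 (-0.40, 0.0403) and Eif2ak3 higher in mT69a (0.46, 0.0494). Under the block 3.8% and 3.49% of all genes were called higher and lower in mT6, and 6.04% and 4.55% in mT69a. For the difference between the lines' responses to the vector edgeR called 0 of the 36, with 0 at an unadjusted p under 0.05 and 0 by DESeq2, where 0.0138% of all genes were called higher in mT69a and 0.0% lower.

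Slc7a5 (ENSMUSG00000040010.10, chromosome 8, 121881150 to 121907694 on GRCm38) had 68.1 and 60.7 CPM in the mT6 knockout and 84.7 and 89.3 CPM with the vector. In mT69a it had 102 and 105 CPM in the knockout and 137 and 129 CPM with the vector. Both vector libraries of each line lay above the line's other 4 libraries, since the controls had 63.1 and 54.4 CPM in mT6 and 98.5 and 91.9 CPM in mT69a. The log2 fold change against the knockout was 0.40 ± 0.09 averaged over the lines (edgeR adjusted p = 0.0174), and it was positive in all 4 same-number pairs (0.31, 0.55, 0.43 and 0.29). The call was lost without mT69a knockout 1 (0.0772), mT69a knockout 2 (0.0648), mT6 knockout 2 (0.0666) or mT69a vector 1 (0.0912). Against control the vector libraries were higher by 0.52 ± 0.09 (edgeR adjusted p = 0.00247), a call kept in each left-out fit. Its partner chain Slc3a2 had 157 and 137 CPM in the mT6 knockout and 147 and 121 CPM with the vector, which overlap. In mT69a Slc3a2 had 176 and 146 CPM in the knockout and 185 and 184 CPM with the vector. Both mT69a vector libraries lay above the line's knockout and control libraries. Within the same replicate number, vector minus knockout was -0.09 and -0.17 in mT6 and 0.08 and 0.33 in mT69a. Slc3a2 was called in neither line.

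Slc7a11 went from 610 and 612 CPM in the mT6 knockout to 345 and 377 CPM with the vector, inside the range of its controls. The log2 fold change of -0.76 was not called (edgeR adjusted p = 0.187). In mT69a the vector libraries were 248 and 418 CPM, the widest split of a pair for this gene. The 2 NRF2 targets called in the mT6 knockout parted with the vector. Nqo1 had 6.3 and 6.7 CPM in the mT6 knockout and 7.9 and 7.9 CPM with the vector. Srxn1 had 53.5 and 34.4 CPM in the mT6 knockout and 33.8 and 27.6 CPM with the vector.

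Against control, averaged over the lines, the vector libraries had 2 genes higher, Nupr1 and Slc7a5, and 2 lower, Vldlr and Nars, where 8.04% of all genes were called higher and 6.41% lower. Vldlr had 139 and 149 CPM with the vector against 178 and 196 CPM in the mT6 controls, and 72.2 and 79.9 CPM against 101 and 153 CPM in mT69a, below control in both lines. Its log2 fold change was -0.56 ± 0.14 (edgeR adjusted p = 0.0251), lost without any of 5 libraries: mT6 vector 1 (0.0651), either mT69a vector library (0.1 and 0.0651), mT6 control 2 (0.0697) or mT69a control 2 (0.0871). Nars was lower by edgeR's test at -0.49 ± 0.13 (adjusted p = 0.032), lost without any of 7 libraries (0.0553 to 0.131), among them all 4 of mT69a control and vector, both mT6 vector libraries and mT6 control 1. Within the same replicate number the Nars differences were -0.36 and -0.06 in mT6 and -0.78 and -0.73 in mT69a. Chromosome 18, which holds Nars, had the lowest median of 20 chromosomes in this comparison, -0.22, and its part was not tested. With the block, Gars and Wars were lower too (-0.41 and -0.48, edgeR adjusted p = 0.003 and 0.000206), where 13.2% of all genes were called higher and 12.2% lower.

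Of the 34 other integrated stress response genes, edgeR called 2 higher and 0 lower with the vector in each line, Eif2ak4 and Slc36a4, against the shares of all genes given above. Eif2ak4, the kinase GCN2, had 13.9 and 15.2 CPM in the mT6 knockout and 30.1 and 30.2 CPM with the vector. In mT69a it had 14.6 and 15.2 CPM against 34.5 and 31.6 CPM. The controls had 13.5 to 15.5 CPM, so the 4 vector libraries stood apart from all others. The log2 fold change was 1.05 ± 0.13 in mT6 and 1.15 ± 0.13 in mT69a (edgeR adjusted p = 0.00238 and 0.000836). Slc36a4, an amino acid carrier of the PAT family, rose by 1.52 and 1.03 (edgeR adjusted p = 0.00875 and 0.036), and averaged over the lines the glutamine carrier Slc1a5 rose by 0.56 (edgeR adjusted p = 0.0463). The secreted glycoprotein Stc2 fell by 0.44 in that average (edgeR adjusted p = 0.0357). The endoplasmic reticulum genes Edem1, Syvn1 and Xbp1 rose by 0.67, 0.50 and 0.47 (edgeR adjusted p = 0.00315, 0.0194 and 0.0275). Knockout against control and vector against knockout share the knockout libraries, so opposite signs in them are not independent.

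The replicate number was the other large axis. Across the 6 groups, 25 of the 36 genes were lower in the library numbered 2 than in the one numbered 1, and 2 were higher, where 13.5% of all genes were called lower and 12.6% higher. By role, 9 of 12 stress factors, 6 of 7 synthesis enzymes and 10 of 12 synthetases were lower, and among the 5 transporters Slc7a1 and Slc38a2 were higher. In 23 genes library 2 was below library 1 in all 6 groups, and in 2 it was above in all 6. The share of all genes with 1 sign in all 6 groups was not computed, so these 2 counts have no background. The median log2 difference was -0.24 over the 36 and -0.02 over all genes.

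Ppp1r15a, which helps to dephosphorylate eIF2 and so ends the response, had 19.9, 25.1, 28.7, 37.5, 44.8 and 35.96 CPM in the libraries numbered 1 of the mT6 control, knockout and vector and the mT69a control, knockout and vector. In the libraries numbered 2 it had 10.9, 11.7, 10.4, 31.0, 14.4 and 19.8 CPM in the same order. The fall was largest in the mT69a knockout and smallest in the mT69a controls. The log2 difference was -1.01 ± 0.17 (edgeR adjusted p = 0.0053). Ddit4 fell by 0.98, Ddit3 by 0.91, Trib3 by 0.73 and Atf4 by 0.42 on the log2 scale (edgeR adjusted p = 0.00589, 0.00265, 0.0105 and 0.00111). Each of these 5 falls was seen in all 6 groups and passed without any single library. Eif4ebp1, the translation repressor 4E-BP1, fell by 0.53 (edgeR adjusted p = 0.00181) and was the 1 gene of the 36 whose 6 libraries numbered 2 all lay below the 6 numbered 1, where 0.836% of all genes did. Its values were 68.2 to 101 CPM in the libraries numbered 1 and 46.8 to 64.8 CPM in those numbered 2.

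Chac1 went the same way in 5 groups and the opposite way in the mT6 vector group (1.40 and 3.99 CPM), and was not called (-0.70, edgeR adjusted p = 0.115). Slc7a1 and Slc38a2 were higher by 0.28 and 0.20 (edgeR adjusted p = 0.0109 and 0.0182). Slc7a1 passed no longer without mT6 knockout 1 (0.055), and Slc38a2 without any 1 of the 6 mT6 libraries (0.0528 to 0.0657). On the TPM scale the median of all genes shifted to -0.21 and that of the 36 to -0.41 (limma on log2(TPM + 1)), and Slc38a2 turned to -0.05. Without mT6 knockout 2 the count of calls was 16 and without mT6 knockout 1 it was 17.

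**Figure D5:**
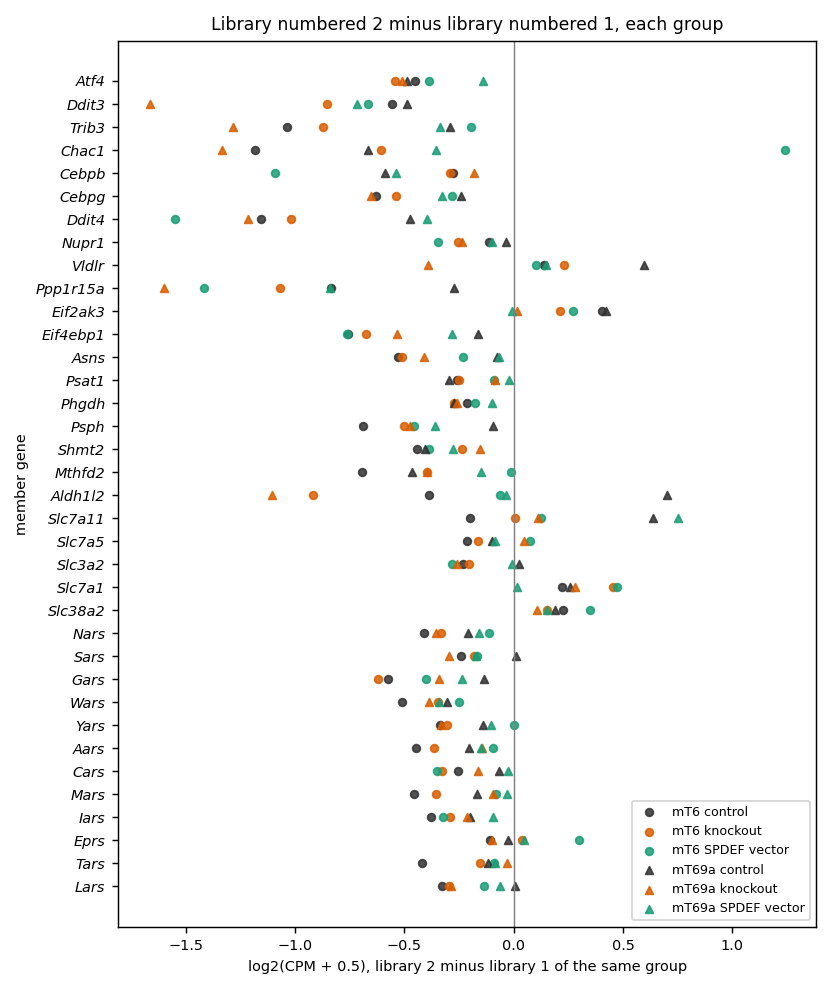
The horizontal axis is log2(CPM + 0.5) of library 2 minus library 1, with 1 point for each of the 6 groups and each of the 36 genes. Atf4, Ddit3, Trib3, Ddit4, Ppp1r15a and Eif4ebp1 lie left of 0 in all 6 groups, and Slc7a1 and Slc38a2 lie right of it in all 6.

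Other gene groups moved with the replicate number. Of the 34 other integrated stress response genes 11 were lower in the libraries numbered 2, among them the stress factor Atf3 (-1.996 on the log2 scale), Gdf15 (-1.18) and the mTORC1 regulator Sesn2 (-0.83), and 3 carriers were higher, Slc1a4 (0.65), Slc1a5 (0.30) and Slc36a4 (0.30). Of 7 immediate early genes 5 were lower, with a median of -1.10 and a summed level of 212 to 762 CPM in the libraries numbered 1 and 176 to 326 CPM in those numbered 2. Of 20 endoplasmic reticulum genes 8 were higher, among them Sel1l (0.43) and Pdia3 (0.36). The mitochondrial share given above separated the numbers without overlap, and epithelial markers summed to 4408 to 5897 CPM in the libraries numbered 1 and 3467 to 4773 CPM in those numbered 2. Their part in the differences was not tested, and the labels do not say what the number stands for. Both numbers occur once in each group, so the comparisons of groups and lines are balanced for it.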

How the data were processed

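RNA of 12 organoid libraries was sequenced from strand-specific total RNA libraries (Trizol extraction, DNase treatment, TruSeq Stranded Total RNA kit, per the labels' protocols). Per the submitters' processing notes the authors used FastQC 0.11.8, STAR 2.5.2b, RSEM 1.3.0 and GRCm38.p6, and the setting for strand is not given in the sources used here. The deposited values are RSEM expected counts per gene, rounded here to whole numbers, and TPM computed by the authors. Depth was 9094295 to 28903831 expected counts per library. Identifiers were matched to GENCODE M21. The symbol Ddit3 had 2 identifiers, and the one with more counts was used.

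Genes were filtered by group with filterByExpr and fitted with edgeR 4.0.16 (TMM, robust quasi-likelihood, 6 group means, 6 residual degrees of freedom, and 19.2% as the biological coefficient of variation). Adjusted p are Benjamini-Hochberg values over 14473 genes, two-sided, with a threshold of 0.05. CPM are TMM-scaled. Standard errors are the fold change divided by the root of F. There were 10 comparisons, and 3 more were chosen after the values were seen: the lines compared in the knockout, the lines compared with the vector, and the replicate number. The genes and lists were chosen with earlier results of these data known. All 36 genes may be named, with full statistics for those past the threshold, and genes of the other lists only past it. Lists are described by counts and medians.

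Libraries with the same replicate number deviated together: the correlation of their deviations from the group means was 0.205 to 0.531 over 15 pairs of groups, each above 0.1, so the numbers pair the libraries. A fit with the number as a block has 5 residual degrees of freedom. Alternatives were DESeq2 1.42.0, RLE size factors, no count filter, limma 3.58.1 on log2 of TPM plus 1 or 0.1, the block, each library left out and, added later, no mitochondrial genes. The tests were checked on simulated counts, drawn independently for each library. The check of the group tests held no deviation shared by libraries of the same number, so it does not cover that pairing. Versions were R 4.3.3, 1.17.8 of data.table, Python 3.11.15, numpy 2.4.6, pandas 2.3.3 and matplotlib 3.10.9. Promoter windows are RefSeq's.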

Additional observations from a re-analysis of the deposited data

Results flagged for a closer look

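The response to the Spdef knockout differed between the lines for Lars, the leucyl-tRNA synthetase, by edgeR's test of the difference itself (mT69a minus mT6, log2 difference -0.87, adjusted p = 0.0432). Lars fell in the mT69a knockout and not in the mT6 knockout, where its log2 differences within the same replicate number were 0.18 and 0.21. The median of the 341 tested genes on its chromosome, 18, was -0.56 for the same difference, and the part of the chromosome in the value was not tested.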

How the results depend on the processing

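Counts below are of the 36 genes called. With limma on log2 TPM, with a pseudocount of 1, of 0.1, or of 1 and no low-value filter, 0 were called for knockout against control in mT6, in mT69a and averaged, for vector against knockout averaged, for vector against control and for the line difference in the knockout response. Between the lines these 3 fits called 7, 7 and 1 in the controls, 2, 2 and 0 in the knockout, and 2, 2 and 0 with the vector, against 20, 14 and 18. Slc38a2, higher in the libraries numbered 2 by edgeR, turned to -0.0523, -0.0529 and -0.0523 there. On log2(TPM + 0.1) the median of all genes shifted to 0.11 in the mT69a knockout and to -0.19 for its vector. DESeq2 called 2 for the mT6 knockout, 2 for vector against knockout averaged and 2 for the line difference in the knockout response. Without the count filter edgeR called 3 in the mT6 knockout, 5 in mT69a and 5 averaged, 2 for vector against knockout in mT6 and 3 averaged, 1 for the line difference in the vector response and 23 between the lines' knockouts. RLE size factors and leaving out mitochondrial genes moved no count by over 1.5 times.

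With the replicate number as a block, 4 were called in the mT6 knockout, 6 in mT69a and 5 averaged, 2 for vector against knockout in each line, 5 for the line difference in the knockout response, 31 between the controls of the lines and 24 between the knockouts. No other count moved by over 1.5 times under the block.

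Leaving out 1 library at a time gave 0 to 3 calls in the mT69a knockout, 0 to 2 for vector against knockout averaged, 2 to 4 for vector against control, 0 to 1 for the line difference in the knockout response, 8 to 23, 6 to 15 and 2 to 20 between the lines in the controls, knockout and vector libraries, and 16 to 27 for the replicate number. The single call in the mT6 knockout and in the average stayed at 1. Among named single-gene values over all alternatives, 1383 kept direction and side of the threshold, 387 kept direction and lost the threshold and 3 turned. The causes were not tested.

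Low counts limit the check of Spdef in mT69a, and 2 libraries per group limit all comparisons.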
